A study of Gallus gallus with 26 samples.

Results

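Early-stage ovarian tumours of the hen were compared with normal ovary across the messenger RNA of the whole tissue, with 4 libraries in each group. All 25079 genes of the deposited count table are members of the comparison. Of these, 16130 held enough counts to be tested, 8949 did not, and 3471 had no count in any of the 8 libraries. The series also holds 5 libraries of late-stage tumour, which entered the fit for the estimate of spread and whose levels are given beside some genes. The labels give the tissue alone (normal ovary, or early-stage ovarian cancer), and no source used here gives the strain, age, laying state or tumour type of the birds. Whether each library is a different bird is not stated, and p-values therefore cover the spread among these libraries, which may be technical. Libraries are called by the number in their code: normal 3, 4, 6 and 7, and early 9, 11, 12 and 21. Lists of values follow that order, as normalised CPM (counts per 1000000 of the scaled library size).

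The hen's ovary carries follicles of many sizes, each an oocyte wrapped in granulosa cells and, outside these, a theca layer that makes androgens. Between them lies a stroma of fibroblasts, smooth muscle, vessels, nerves and immune cells, under a thin surface epithelium. Hens develop ovarian carcinoma spontaneously, and the disease is used as a model of human ovarian cancer.

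Total counts ranged from 16273700 to 20030500 over the 8 libraries. Follicle markers were read in every library of both groups. GDF9, a growth factor of the oocyte, stood at 196, 250.3, 155 and 299.7 CPM in normal and 193, 404, 262 and 199 in early libraries, and AMH, a hormone of granulosa cells, at 144 to 357 CPM in normal and 163 to 361 in early libraries. Of 55 cell type markers, 53 were in the table and 46 were tested. Of the 7 oviduct gland markers, OVAL, the egg-white protein ovalbumin, ran from 0.244 to 1.51 CPM, OVALY from 0.0485 to 2.38, SPINK7 from 0 to 1.38 and LYZ from 0.0969 to 0.835, and OVALX was at 0 in 7 of the 8 libraries. AVD, the biotin-binding protein avidin, ran from 0.8397 to 8.82 CPM, and TF, an iron carrier that the oviduct also secretes, from 3.39 to 133, with its highest values in early 9 and early 21. The skeletal muscle markers MYLPF and TNNC2 did not exceed 0.0982 and 0.565 CPM.

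No gene differed between early tumour and normal ovary by edgeR's quasi-likelihood test at an adjusted p of 0.05 (0 of 16130, 0%, smallest adjusted p = 0.463). At an unadjusted p under 0.05 there were 813 genes, or 5.04% of those tested, where 806.5 would be counted if no gene differed. Of these, 346 (2.15%) had the higher mean in early tumour and 467 (2.9%) the lower. In 381 genes (2.36%) the 4 early values and the 4 normal values did not overlap, 188 with early above normal (1.17%) and 193 below (1.2%). If no gene differed, a share of 0.0286 would be expected without overlap, so the share seen was not above it. DESeq2, a second count test, called 8 of 21966 genes (0.0364%), and voom with quality weights called 0, with a smallest adjusted p of 0.0835. At an unadjusted p under 0.05, voom counted 1602 of the 16130 genes, above the 806.5. The limma fits on the deposited TPM values counted 693 and 651, below it. The counts by unadjusted p and by DESeq2 depended on single libraries, while edgeR called 0 genes whichever library was left out. The number with an unadjusted p under 0.05 was 459 without normal 3, 469 without normal 4 and 1879 without normal 7. The number without overlap, which compares 3 with 4 values once a library is left out, was 2030 without normal 7 and from 522 to 807 without any other. With 3 against 4 values more genes are expected without overlap if none differs, so these counts are not set against 381. DESeq2 called 172 genes without normal 7 and from 6 to 16 without any other.

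The fit also bounds how large most differences could be. The median log2 fold change was 0.01, and 52.0% of genes had the higher mean in early tumour. The standard error of a gene's log2 fold change had a median of 0.27 and ran from 0.14 to 0.67 between the 5th and 95th percentiles. The 95% interval lay wholly within 2-fold in either direction for 10202 genes (63.2%) and within 1.5-fold for 4570 (28.3%). It reached past 2-fold in both directions for 1005 genes, whose difference was not measurable to that size. The estimate itself was past 2-fold for 512 genes, 194 higher and 318 lower in early tumour. In 72 of the 512 the groups did not overlap, beside 2.36% of all tested genes. The 512 were picked by fold change in the same libraries, which makes a lack of overlap more likely, so the count gives them no support.

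**Figure D1:**
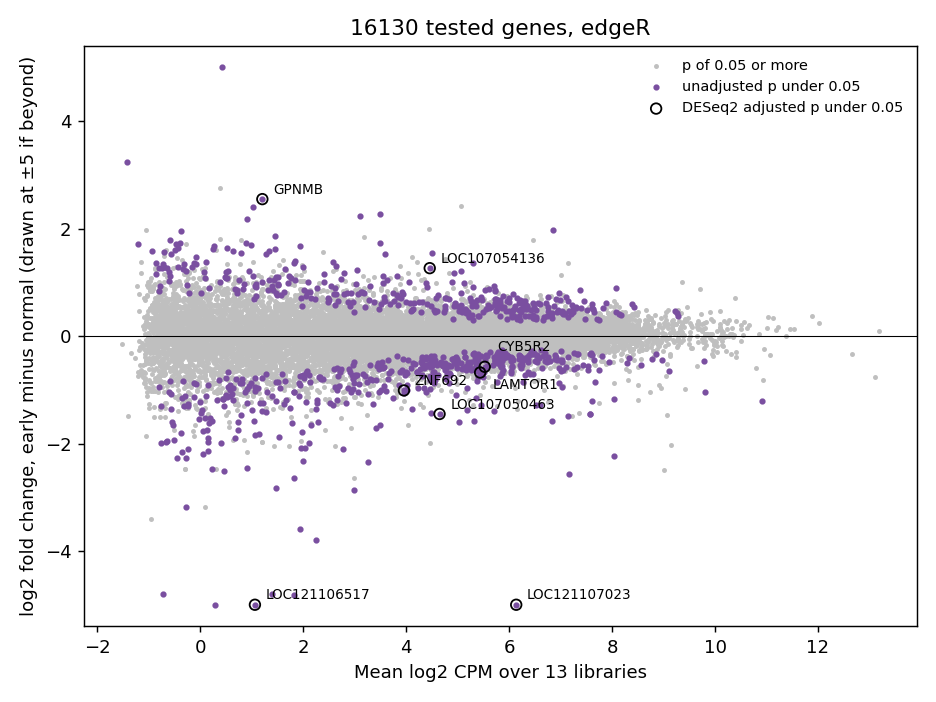
Each point is 1 of the 16130 tested genes, by its mean level (log2 CPM over the 13 libraries in the fit) and its log2 fold change, early minus normal. Purple points have an unadjusted edgeR p under 0.05 (813 genes), and black rings mark the 8 genes called by DESeq2, 6 of them below 0.

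The genes with the smallest p were chosen by that p, which makes a lack of overlap between the groups likely, and edgeR called none of them. The edgeR adjusted p was 0.463 for LOC107054136, LOC107050463 and LOC121106517, 0.632 for CYB5R2 and 0.712 for LAMTOR1 and ZNF692. It was 0.916 for GPNMB and LOC121107023. LOC107054136, a long non-coding RNA of unknown role, stood at 12.9, 9.66, 7.55 and 14.03 CPM in normal ovary and 24.8, 31.7, 24.5 and 25.3 in early tumour. All 4 early values lay above all 4 normal ones, and early 11 was the highest. The log2 fold change was 1.26 ± 0.22 SE (95% interval 0.79 to 1.74; DESeq2 adjusted p = 1.98e-04). The 5 late libraries ran from 20.6 to 34.2 CPM. The protein-coding gene LOC107050463 had the opposite order, at 58.6, 34.3, 47.2 and 29.9 CPM in normal and 15.4, 17.8, 20.2 and 8.82 in early libraries. Its lowest normal value, in normal 7, was above its highest early value, in early 12, and the log2 fold change was -1.45 ± 0.26 SE (DESeq2 adjusted p = 6.00e-04). Late libraries ran from 16.2 to 21.9 CPM.

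Among annotated genes, CYB5R2 varied little within groups. This reductase passes electrons from NADH to cytochrome b5. It stood at 53.97, 50.3, 58.4 and 54.1 CPM in normal and 34.7, 35.5, 37.5 and 38.2 in early libraries, a log2 fold change of -0.57 ± 0.11 SE (95% interval -0.81 to -0.33; DESeq2 adjusted p = 3.75e-07). The groups did not overlap, and the late libraries, from 45.9 to 48.8 CPM, lay between them. LAMTOR1, which anchors the growth-sensing kinase complex mTORC1 to lysosomes, stood at 57.97, 51.6, 53.02 and 56.4 CPM in normal and 34.7, 31.8, 37.03 and 33.3 in early libraries (log2 fold change -0.68 ± 0.14 SE; DESeq2 adjusted p = 0.00196). Here too every early value was below every normal one. ZNF692, a zinc finger protein, stood at 23.8, 23.03, 28.2 and 16.9 CPM in normal and 11.3, 13.1, 10.4 and 10.9 in early libraries (log2 fold change -1.01 ± 0.21 SE; DESeq2 adjusted p = 0.00265), again without overlap.

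GPNMB, a membrane glycoprotein of lysosomes and pigment granules that macrophages also make, was a rare transcript. It stood at 0.859, 0.251, 0.548 and 0.8397 CPM in normal and 1.598, 1.82, 4.701 and 6.78 in early libraries, with early 12 and early 21 the highest, and a log2 fold change of 2.55 ± 0.60 SE (DESeq2 adjusted p = 0.0282). The groups did not overlap. The other genes called by DESeq2 were at 0 counts in all 4 early libraries. LOC121106517, a protein-coding gene, had 32, 82, 147 and 107 counts in the normal libraries (DESeq2 adjusted p = 9.85e-08). Against a floor of 3 counts per early library, its normal mean was 34.2-fold higher and its lowest normal library, normal 3, 10.5-fold. Late libraries ran from 0 to 2.70 CPM. LOC121107023, annotated as a ribosomal RNA, had 7519, 4217, 3055 and 778 counts in the normal libraries (DESeq2 adjusted p = 9.14e-10). Against the same floor, its normal mean was 1414-fold higher and its lowest normal library, normal 7, 250-fold. Among late libraries it was read in late 25 alone, at 45.9 CPM. Reads of ribosomal RNA fit many near-identical copies, and no source used here says how the authors shared them between copies, so this value is uncertain.

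DESeq2's calls were repeated without each early or normal library in turn. The genes followed had been chosen as its calls on the same libraries, which made a repeat call likely. CYB5R2, LOC107050463, LOC107054136, LOC121106517 and LOC121107023 were called in all 8 repeats. LAMTOR1 and ZNF692 were called in 6 and lost without normal 3 or early 21, and GPNMB was called in 3.

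**Figure D2:**
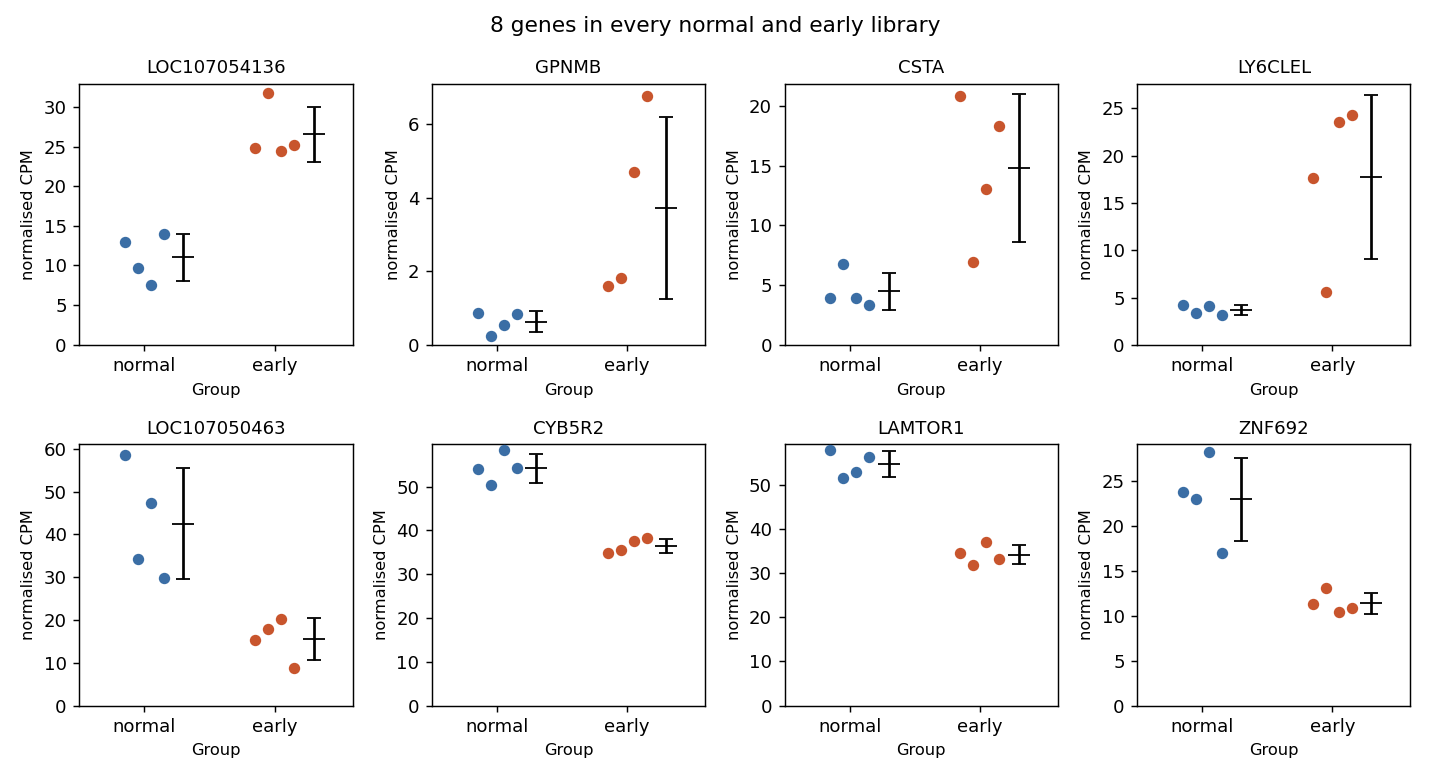
Normalised CPM of 8 genes in the 4 normal (blue) and 4 early (orange) libraries, 1 point per library, with the mean and SD of each group in black. The groups do not overlap for any of the 8 genes, which were chosen for a small p or a large fold change.

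The 10 genes with the smallest p in each direction were taken among those with a mean log2 CPM of at least 1. Some rarer genes had a smaller p and were left out by this cut. For the rest of the 10 in each direction the groups did not overlap either, beside 2.36% of all tested genes without overlap. They were picked by p in the same libraries, which makes a lack of overlap likely, so it gives them no support. Higher in early tumour were SFXN1, a mitochondrial serine transporter, at 70.3, 64.5, 59.1 and 70.04 CPM in normal and 104, 97.5, 83.3 and 99.4 in early libraries (log2 fold change 0.54 ± 0.14 SE). PLEKHA3, a lipid-binding protein of the Golgi, had a log2 fold change of 0.67 ± 0.17 SE, and the septin gene SEPTIN14, a part of the cytoskeleton, 0.47 ± 0.13 SE. ZNF106, a zinc finger protein, had 0.50 ± 0.14 SE, and OVCH1, of the ovochymase protease family, 1.26 ± 0.34 SE, the latter at under 6 CPM in every library. The long non-coding RNAs LOC107053649, LOC112532582 and LOC101750820 had log2 fold changes of 1.97, 1.59 and 1.17.

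Lower in early tumour was NABP2, which binds single-stranded DNA during repair, at 21.98, 20.1, 21.5 and 17.3 CPM in normal and 12.6, 10.8, 14.9 and 10.8 in early libraries (log2 fold change -0.72 ± 0.19 SE). LSM12, of the LSm family, had a log2 fold change of -0.66 ± 0.16 SE, and MAP7D1, a microtubule-associated protein, -0.75 ± 0.20 SE. HOXA10-AS, the antisense RNA of a homeobox gene of the reproductive tract, stood at 8.74, 4.64, 8.58 and 5.53 CPM in normal and 1.76, 1.57, 0.969 and 2.19 in early libraries. No source used here says whether the counting used strand, so its reads cannot be told apart from those of overlapping genes. The edgeR adjusted p of each gene in both paragraphs was 0.916.

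The largest fold changes among genes with a mean log2 CPM of at least 3 were mostly carried by some libraries of a group. On the higher side, the groups did not overlap for LY6CLEL, CSTA and LOC107053649. Being picked by fold change in the same libraries makes a lack of overlap more likely. LY6CLEL stood at 4.19, 3.33, 4.08 and 3.11 CPM in normal and 17.6, 5.55, 23.6 and 24.3 in early libraries, with early 11 close to normal (log2 fold change 2.27 ± 0.71 SE). CSTA, an inhibitor of cysteine proteases in epithelia, stood at 3.89, 6.78, 3.896 and 3.31 CPM in normal and 20.9, 6.97, 13.04 and 18.4 in early libraries (log2 fold change 1.73 ± 0.51 SE). The late libraries ran across both groups, from 0.883 to 28.5 CPM for LY6CLEL and from 3.95 to 24.9 for CSTA. F13A1, a coagulation transglutaminase that tissue macrophages make, stood at 77.2, 58.7, 42.9 and 16.9 CPM in normal and 479, 15.1, 81.96 and 104 in early libraries, so that early 9 alone carried most of its mean. TF was high in early 21 and early 9: 22.3, 21.5, 4.14 and 5.04 CPM in normal and 63.5, 12.2, 3.39 and 133 in early libraries (log2 fold change 2.00 ± 0.97 SE). LOC101751314, a long non-coding RNA, was high in early 11 and normal 4 alone, and its log2 fold change of 1.85 turned to -5.05 without early 11. LOC101751168 was high in early 11 and early 12, at 25.8, 0.6903, 2.13 and 1.93 CPM in normal and 3.14, 87.1, 72.2 and 3.03 in early libraries, and LOC121110362 in early 9 and early 12, at 1.28 to 6.53 CPM in normal and 0.393 to 49.00 in early libraries.

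Of the 8 genes on the lower side, 4 were contractile: ACTG2, TAGLN, DES and ACTA1. ACTG2, the actin of visceral smooth muscle, stood at 2231, 2644, 389 and 42.1 CPM in normal and 672, 44.1, 53.7 and 175 in early libraries (log2 fold change -2.49 ± 1.21 SE). TAGLN, which binds actin in smooth muscle, stood at 98.3 to 2815 CPM in normal and 54.9 to 822 in early libraries (log2 fold change -2.02 ± 1.01 SE). DES, the intermediate filament of muscle, stood at 63.9 to 1295 CPM in normal and 32.8 to 310.3 in early libraries (log2 fold change -2.23 ± 0.94 SE). In all 3, normal 3 and 4 were the highest libraries and normal 7 was at or near the level of early 11 and 12, so the groups overlapped. ACTA1, a striated muscle actin, and NCS1, a neuronal calcium sensor, had the same order, with log2 fold changes of -2.56 ± 0.93 SE and -2.34 ± 0.79 SE. The others were LOC121107023, described above, KCTD12B (-1.72 ± 0.61 SE) and LOC112531347 (-1.98 ± 0.94 SE), both with overlapping groups. In bulk tissue, fewer cells of a type and less RNA per cell cannot be told apart.

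A total of 30 gene lists was used to describe the compartments of the ovary. They hold 778 distinct tested genes, of which 28 (3.60%) had an unadjusted p under 0.05, against 5.04% of all genes, and 7 (0.900%) did not overlap, against 2.36%. edgeR called none of them. For each list the text gives how many tested genes had the higher or lower mean in early tumour and the median log2 fold change, beside 52.0% higher and a median of 0.01 over all genes. The score of a list in a library averages the log2 CPM of its tested genes, each taken relative to its own mean over the 8 libraries. The scores of the 2 groups overlapped for every list (0 of 30 separated). The sign of the median changed under at least 1 alternative for 20 of the 30 lists. It did not for the other 10: the smooth muscle, fibroblast, interferon, T cell, stress and hypoxia lists, below 0, and the red blood cell, liver, epithelial and Wnt lists, above 0. Several of these came close to 0 under an alternative. The median reached -0.013 for the fibroblast list with its own score as a covariate and 0.006 for the Wnt list by limma on log2(TPM + 0.1). It reached -0.019 for the hypoxia list without normal 4 and 0.032 for the liver list without early 9.

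**Figure D3:**
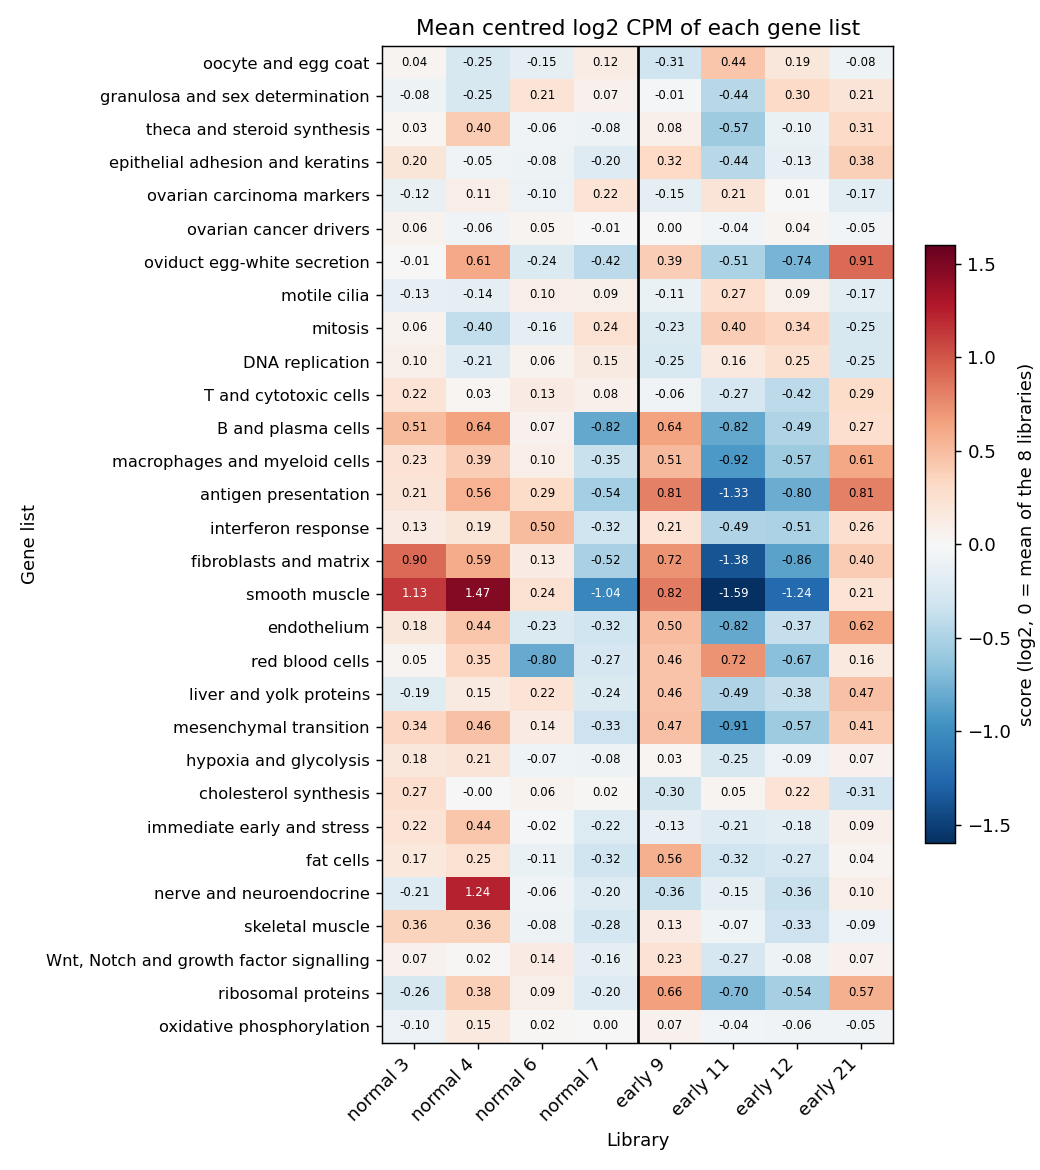
Score of each of 30 gene lists (rows) in each of the 8 libraries (columns, normal left of the line and early right of it), on a log2 scale where 0 is the mean of the 8. The fibroblast, smooth muscle, macrophage and antigen presentation lists are low (blue) in early 11, early 12 and normal 7 and high (red) in normal 3, normal 4, early 9 and early 21, so the colours cross the line between the groups.

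No gene of the follicle lists was called by edgeR, and their medians lay from -0.02 to 0.21. In the oocyte and egg coat list, 16 of 20 tested genes were higher and 4 lower, with a median of 0.21. ZP2, which forms part of the coat around the egg, stood at 476, 228, 346 and 314 CPM in normal and 231, 393, 407 and 224 in early libraries, and DAZL, an RNA-binding protein of germ cells, at 127 to 229.8 CPM in normal and 172 to 223 in early libraries. The oocyte score was highest in early 11 (0.44) and lowest in early 9 (-0.31), with the normal libraries between them. Of 21 tested genes of the granulosa and sex determination list, 12 were higher and 9 lower (median 0.14). FOXL2, the transcription factor that keeps granulosa cells female, stood at 188 to 403 CPM in normal and 151 to 318 in early libraries, and FSHR, the receptor for follicle-stimulating hormone, at 44.6 ± 11.3 CPM in normal and 57.5 ± 10.3 in early libraries (SD, n = 4 each). The theca and steroid synthesis list had 7 of 16 tested genes higher, 9 lower and a median of -0.02. CYP17A1, the theca enzyme that makes androgens, stood at 82.3 to 114 CPM in normal and 50.6 to 161 in early libraries. STAR, which brings cholesterol into mitochondria, was high in normal 4 alone, at 42.8, 150.5, 49.4 and 40.9 CPM in normal and 28.3, 33.3, 36.1 and 56.3 in early libraries. In the cholesterol synthesis list, 8 of 25 tested genes were higher and 17 lower, with a median of -0.12. Its smallest p was that of ACACA, which makes malonyl-CoA for fatty acid synthesis (log2 fold change -0.48 ± 0.17 SE). The groups overlapped for every one of these genes.

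No epithelial gene, carcinoma marker or driver gene was called by edgeR. Of 22 tested genes of the epithelial adhesion and keratins list, 16 were higher and 6 lower (median 0.15). EPCAM, an adhesion protein of epithelia, stood at 548, 514, 682 and 1069.6 CPM in normal and 572, 1125, 839 and 537 in early libraries, and normal 7 and early 11 were nearly equal. KRT7, a keratin of simple epithelia, stood at 110.0 to 374 CPM in normal and 60.01 to 698 in early libraries, more than 10-fold apart between early 9 and early 11. CLDN1, a protein of tight junctions, was the list's member without overlap, at 208 to 328 CPM in normal and 339 to 453 in early libraries (log2 fold change 0.54 ± 0.24 SE). The ovarian carcinoma markers list had 7 of 15 tested genes higher, 8 lower and a median of -0.01. CD24, a surface protein of many carcinomas, stood at 338 to 593 CPM in normal and 304 to 591 in early libraries. In the ovarian cancer drivers list, 17 of 30 tested genes were higher and 13 lower, with a median of 0.04. The smallest p among them was that of BRCA1, a DNA repair gene, at 122 to 192 CPM in normal and 173 to 276 in early libraries (log2 fold change 0.51 ± 0.23 SE), and its groups overlapped. Of 51 tested genes of the Wnt, Notch and growth factor list, 29 were higher and 22 lower (median 0.08). HES1, a target of Notch, stood at 134 to 183 CPM in normal and 97.2 to 363 in early libraries.

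The smooth muscle list had the median farthest from 0 of the 30, and the fibroblast list also lay below 0. The smooth muscle list had 4 of 23 tested genes higher, 19 lower and a median of -0.91. The score ran from -1.04 in normal 7 to 1.47 in normal 4, and from -1.59 in early 11 to 0.82 in early 9. Under the alternative scalings, filters, tools and left-out libraries the median stayed below 0, from -1.47 without early 9 to -0.28 with the fibroblast score as a covariate. SMTN, a cytoskeletal protein of contractile smooth muscle, had the list's smallest p (log2 fold change -1.37 ± 0.51 SE). In the fibroblasts and matrix list, 8 of 42 tested genes were higher and 34 lower, with a median of -0.39. COL3A1, a collagen of reticular fibres, stood at 5061, 2703, 2051 and 1377 CPM in normal and 3632, 390.3, 821 and 2589 in early libraries, and COL1A1, the main collagen of scar and bone, at 231 to 1993 CPM in normal and 119 to 757 in early libraries. SPARC, a matrix protein that binds collagen, stood at 628 to 1551 CPM in normal and 343 to 1246 in early libraries. Of 24 tested genes of the mesenchymal transition list, 10 were higher and 14 lower (median -0.08). The endothelium list had 18 of 31 tested genes higher, 13 lower and a median of 0.15. EMCN, a sialomucin of vein and capillary walls, had that list's smallest p, at 189.6 to 269 CPM in normal and 261 to 354 in early libraries (log2 fold change 0.44 ± 0.15 SE). PECAM1, a junction protein of vessels, stood at 43.8 to 80.4 CPM in normal and 21.6 to 139.7 in early libraries, low in early 11 and high in early 9. None of these stromal genes separated the groups.

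**Figure D4:**
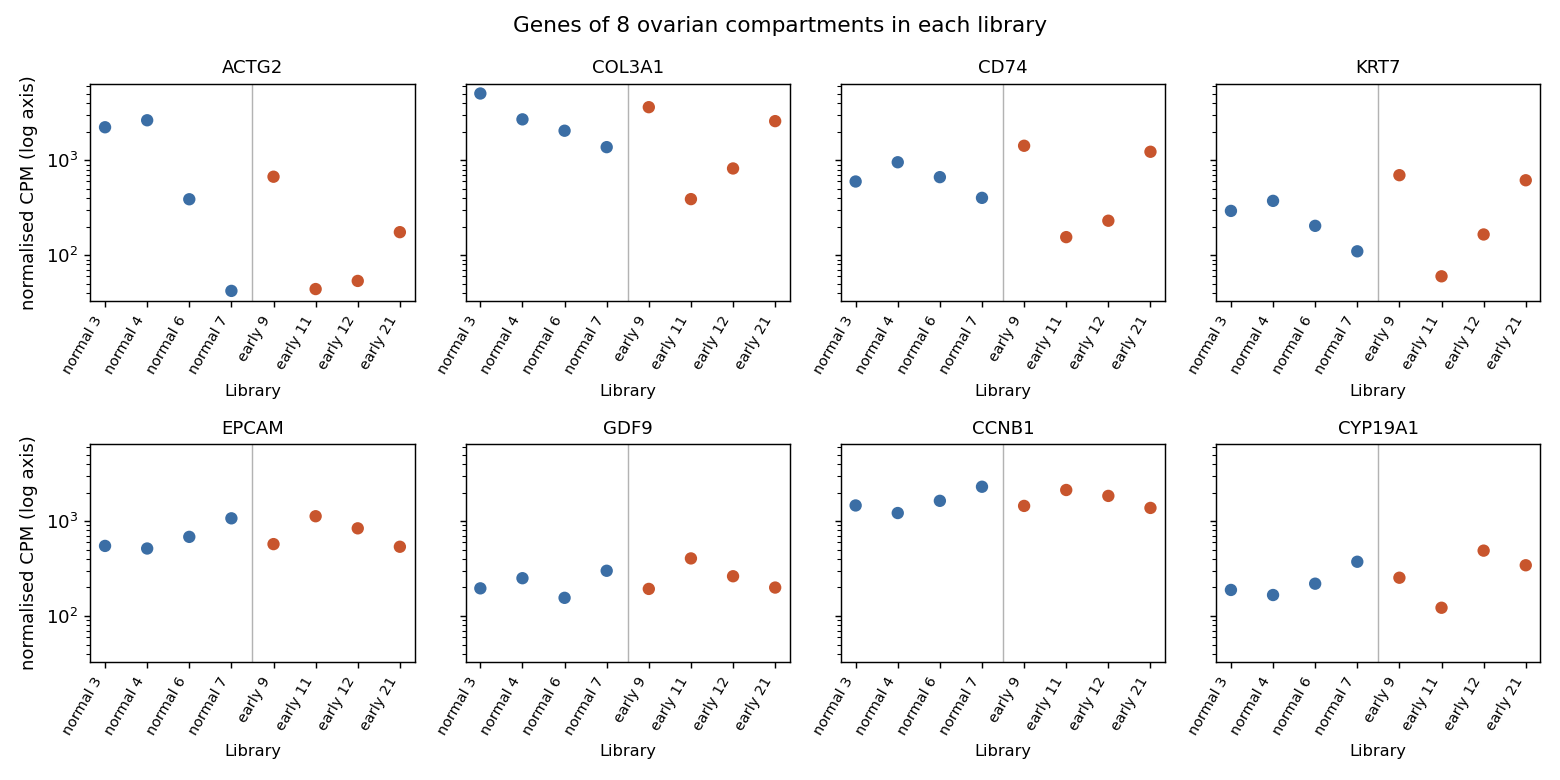
Normalised CPM (log axis) of 8 genes in each library, normal in blue and early in orange. ACTG2, COL3A1, CD74 and KRT7 are low in early 11 and early 12, where EPCAM and CCNB1 are high, while in early 9 and early 21 this order is turned around.

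Most immune lists were high in early 9 and early 21 and low in early 11 and early 12. In the macrophages and myeloid cells list, 15 of 28 tested genes were higher and 13 lower, with a median of 0.06. CD74, the chaperone of antigen-presenting MHC class II, stood at 598, 955, 665 and 403 CPM in normal and 1424, 155, 231 and 1231 in early libraries, so that the early values enclosed the normal ones. The macrophage markers CSF1R, C1QA and C1QC had log2 fold changes of -0.14 ± 0.22, -0.84 ± 0.56 and -0.82 ± 0.62 SE. MPEG1, with the list's smallest p, had -1.05 ± 0.64 SE. Of 15 tested genes of the antigen presentation list, 8 were higher and 7 lower (median 0.03). B2M, the light chain of MHC class I, stood at 592 to 1124 CPM in normal and 345 to 2030.3 in early libraries. The T and cytotoxic cells list had 8 of 23 tested genes higher, 15 lower and a median of -0.15. CD3E, a chain of the T cell receptor complex, stood at 7.97 to 12.53 CPM in normal and 7.17 to 11.4 in early libraries. In the B and plasma cells list, 3 of 12 tested genes were higher and 9 lower, with a median of -0.11. IGLL1, the symbol under which the table lists an immunoglobulin light chain gene, stood at 830.2 to 4906 CPM in normal and 753 to 3507 in early libraries, with normal 3 and 4 the highest. Of 25 tested genes of the interferon response list, 11 were higher and 14 lower (median -0.20). The red blood cells list had 11 of 12 tested genes higher, 1 lower and a median of 0.37. HBBA, a beta globin, stood at 10.1 to 71.2 CPM in normal and 10.4 to 99.5 in early libraries, lowest in normal 6 and early 12. No immune or blood gene named here separated the groups.

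Growth and metabolism lists lay near 0. In the mitosis list, 27 of 35 tested genes were higher and 8 lower, with a median of 0.15. CCNB1, the cyclin that drives entry into mitosis, stood at 1216 to 2301 CPM in normal and 1377 to 2127 in early libraries. BUB1, a kinase of the spindle checkpoint, was the list's member without overlap, at 33.4 to 69.5 CPM in normal and 70.5 to 80.2 in early libraries (log2 fold change 0.49 ± 0.22 SE). With the fibroblast score as a covariate the median of the mitosis list was -0.06. Of 40 tested genes of the DNA replication list, 21 were higher and 19 lower (median 0.01). The hypoxia and glycolysis list had 14 of 31 tested genes higher, 17 lower and a median of -0.08. SLC2A1, a glucose transporter, was the list's member without overlap, at 63.6 to 74.8 CPM in normal and 43.1 to 59.6 in early libraries (log2 fold change -0.40 ± 0.14 SE). In the oxidative phosphorylation list, 23 of 56 tested genes were higher and 33 lower, with a median of -0.03. Of 66 tested genes of the ribosomal proteins list, 48 were higher and 18 lower (median 0.07). RPL37A, the most abundant of the named genes per length (TPM, a level scaled for gene length, averaged 9214 over the 8 libraries), stood at 972 to 1789 CPM in normal and 755 to 1855 in early libraries. The immediate early and stress list had 9 of 28 tested genes higher, 19 lower and a median of -0.14. HSP90AA1, a heat shock chaperone, stood at 1905 to 2987 CPM in normal and 1491 to 1975 in early libraries.

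Lists of neighbouring tissues and of nerve varied between libraries of a group. In the oviduct egg-white secretion list, 6 of 11 tested genes were higher and 5 lower, with a median of 0.11. Its score was 0.91 in early 21 and -0.74 in early 12. CLU, a secreted chaperone, stood at 298 to 842 CPM in normal and 131 to 1478 in early libraries. Of 25 tested genes of the motile cilia list, 15 were higher and 10 lower (median 0.04). The liver and yolk proteins list had 13 of 17 tested genes higher, 4 lower and a median of 0.16. APOA1, the main protein of high-density lipoprotein, which many chicken tissues make, stood at 2412 to 8192 CPM in normal and 1470.4 to 10158 in early libraries. In the fat cells list, 10 of 16 tested genes were higher and 6 lower, with a median of 0.17. FABP4, a fatty acid carrier of fat cells and macrophages, stood at 8.001 to 25.5 CPM in normal and 10.8 to 105 in early libraries, highest in early 9 (log2 fold change 1.44 ± 0.84 SE). The other fat marker, ADIPOQ, went the other way, at 10.1 to 70.8 CPM in normal and 3.25 to 38.4 in early libraries (log2 fold change -1.32 ± 0.76 SE). The groups overlapped for both. Of 12 tested genes of the skeletal muscle list, 7 were higher and 5 lower (median 0.21). The nerve and neuroendocrine list had 5 of 23 tested genes higher, 18 lower and a median of -0.46. The nerve score was 1.24 in normal 4 and between -0.21 and -0.06 in the other normal libraries, and without normal 4 the list's median was 0.13.

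Normal 4 stood apart in genes of catecholamine synthesis. PNMT, DBH, CYB561 and AvBD10 were chosen after their values were seen. PNMT, which turns noradrenaline into adrenaline, had 12, 858, 6 and 2 counts in the normal libraries and 60, 2, 2 and 9 in the early ones. DBH, which makes noradrenaline, stood at 0.101, 14.7, 0.122 and 0.148 CPM in normal and 0.0551, 0.0491, 0.0485 and 2.71 in early libraries, and CYB561, the electron carrier of the same granules, at 0.0609 to 17.7 CPM in normal and 0 to 0.678 in early libraries. CHGA, a protein stored in those granules, stood at 24.2 to 369 CPM in normal and 29.6 to 73.8 in early libraries. AvBD10, an antimicrobial peptide, had 0, 366, 1 and 1 counts in the normal libraries and 0 in every early one, so it too was read in normal 4 almost alone. The part of this library's makeup in other results was not tested.

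**Figure D5:**
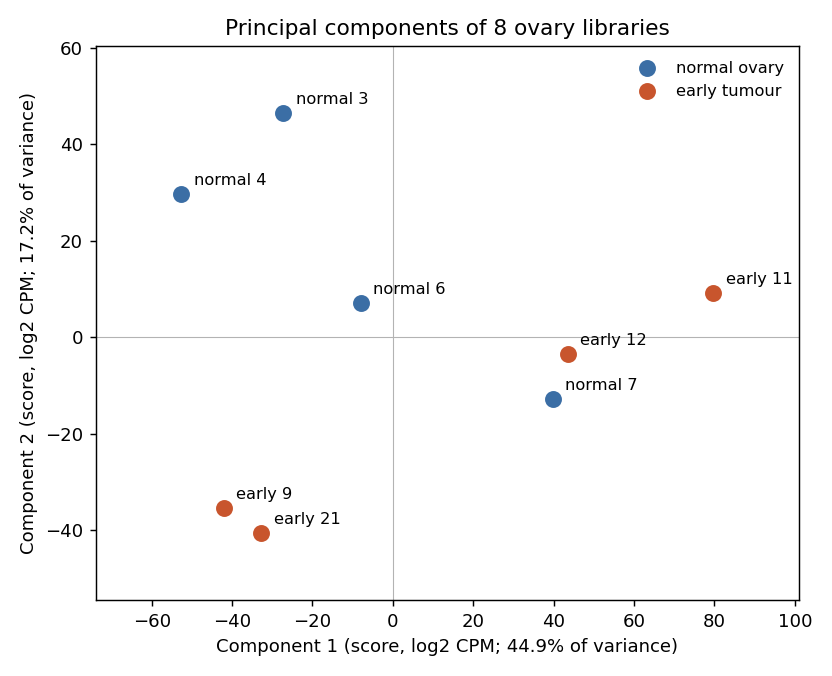
Scores of the 8 libraries on the first and second principal components of log2 CPM over the tested genes (44.9% and 17.2% of variance), with normal ovary in blue and early tumour in orange. On component 1 early 11, early 12 and normal 7 lie to the right and the other 5 libraries to the left of 0.

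The 2 groups took up 14.4% of the variance of log2 CPM over all tested genes, where 14.3% is the average share for 2 groups of 4 that do not differ. The median share per gene was 8.54%, which as a median is not set against the average of 14.3%. The median absolute difference between group means, in either direction, was 0.19 on the log2 scale. The first component scored 79.7 in early 11, 43.5 in early 12 and 39.8 in normal 7, against -8.0 in normal 6, -27.3 in normal 3, -32.8 in early 21, -42.1 in early 9 and -52.7 in normal 4. The closest pair of all 28 was a tumour and a normal ovary, early 12 and normal 7 (Pearson r = 0.978 across genes, which are not independent replicates). Correlations had a median of 0.952 within early (0.918 to 0.978), 0.963 within normal (0.940 to 0.969) and 0.957 between the groups (0.912 to 0.978). Within-group SDs of log2 CPM had a median of 0.374 in early and 0.329 in normal libraries, and the early SD was the larger for 9009 genes (55.9%). With the scaling method of DESeq2 it was the larger for 9040 genes (56.0%). Without early 11 it was the larger for 7328 of 16352 genes (44.8%). Without early 9, early 12 or early 21 the share was 54.9%, 56.7% and 55.7%, so the direction depended on early 11. Each of these sets an SD of 3 early values against an SD of 4 normal ones. An SD of fewer values tends to be lower, so these shares are not set against 55.9%. The early SD of the list score was the larger for 24 of the 30 lists. Many list scores rose and fell together across the libraries, and this count was not repeated without early 11.

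Among genes with a mean log2 CPM of at least 4, TCF24, a transcription factor gene, was one of those with the largest within-group SD, at 418, 619.7, 53.8 and 8.001 CPM in normal and 495, 6.48, 19.6 and 56.5 in early libraries. Others were LOC107055485, from 0 to 28.6 CPM over the 8 libraries, LOC107052086, from 1.47 to 125, and LOC121107687, from 0.247 to 301. LOC107054849 and LOC100857473 ran from 1.41 to 60.5 and from 0.772 to 53.1 CPM.

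Some genes were read in 1 library and nearly absent from another. In all, 68 genes had at most 3 counts in one of the 8 libraries and at least 100 in another, 43 of them under provisional LOC symbols. Of these, 52 were protein-coding, 11 long non-coding and 3 ribosomal RNAs, and 54 of the 68 were tested. The groups did not overlap for 4 of the 54, beside 2.36% of all tested genes. A wide range was what chose these genes. LOC121107145, a long non-coding RNA, stood at 0.606, 0, 43.5 and 53.5 CPM in normal and 0, 85.5, 38.3 and 0 in early libraries, off in normal 4, early 9 and early 21. LOC121107016, annotated as a ribosomal RNA and chosen after its values were seen, had 0, 0, 3407 and 0 counts in the early libraries and 0, 74, 0 and 0 in the normal ones. Among genes with at least 100 counts summed over the 8 libraries, 38 fell into 13 sets whose rounded counts were identical in every library, the largest of 10 genes. Values of such genes are uncertain.

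The shares in this paragraph are per 1000000 counts of the library's unscaled total, unlike the normalised CPM used elsewhere. Genes annotated as ribosomal RNA together took 4556, 5326, 4915 and 3559 in normal and 2735, 2731, 1827 and 3719 in early libraries. The difference of means, early minus normal, was -1836, and normal 7 lay below early 21, so the groups overlapped (two-sided exact permutation test, p = 0.0571, adjusted over this and the long non-coding RNAs p = 0.114, smallest possible p = 0.0286, n = 4 and 4). Long non-coding RNAs took 13656 ± 3052 in early and 11353 ± 1828 in normal libraries (SD, n = 4 each, exact permutation p = 0.257). The part of these shares in the results above was not tested.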

How the data were processed

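Messenger RNA was read in 13 libraries of the hen: 4 labelled normal ovary, 4 early-stage and 5 late-stage ovarian cancer. Each of the 13 sample codes has 2 library records in the labels, and columns were matched to groups by code. The authors deposited estimated counts per gene, not normalized, of which 27.1% are not whole (tolerance 0.001), and they were rounded before testing. The authors also deposited TPM values, which divide by gene length, used for levels between genes and for 2 alternative fits. The submitters' processing notes name FastQC, BWA and GATK 3.3.0 with no role, and no source used here names the counting program, its use of strand or the genome build. The extraction protocol of the labels describes DNA columns, so the RNA steps are not known. Of the symbols, 25075 matched RefSeq's GRCg7b table, used for kinds of gene alone. The deposited microRNA counts were not used here.

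All 13 libraries entered one edgeR 4.0.16 quasi-likelihood fit in R 4.3.3 (TMM, filterByExpr with a minimum count of 10, robust estimation), with the contrast early minus normal and Benjamini-Hochberg adjustment over 16130 genes at 0.05. SE is the log2 fold change divided by the root of F. Log2 CPM used a prior count of 2. Alternatives were DESeq2 1.42.0, voom with quality weights and limma 3.58.1 on log2(TPM + 1) and log2(TPM + 0.1), other scalings and filters, and leaving out each library. The count test was tested on simulated data. The common coefficient of variation between samples was 33.6%. Totals per library limit the precision of rare genes: 3 counts are about 0.154 CPM.

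Members and gene lists were chosen with earlier results of these data known. Genes were named by a rule: calls, the 10 smallest p in each direction, DESeq2's calls, the most abundant and smallest-p member of each list, cell type markers, the largest SDs within a group and the 8 largest fold changes in each direction. The 10 smallest p were taken among genes with a mean log2 CPM of at least 1. Genes named outside the rule are marked as chosen after their values were seen, and some genes under the rule are not described.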

Additional observations from a re-analysis of the deposited data

Results flagged for a closer look

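In a group of 4 libraries, the highest or lowest value was set against the others by Dixon's ratio, its gap to the nearest library over the range of the group. The critical value for 4 samples was passed by 25 of the 246 groups looked at. Chance passes about 1 group in 20, and several of the genes looked at (PNMT, DBH, CYB561, AvBD10, LOC121107016, TCF24 and LOC121107687) were chosen because a library stood out or the spread was large, so the number passed is not set against chance.

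Normal 4 was far above the other normal libraries in catecholamine genes: PNMT (ratio 0.991), DBH (0.997), CYB561 (0.998) and CHGA (0.905), and in the score of the nerve and neuroendocrine list (0.898). It was also the highest for the antimicrobial peptide gene AvBD10 (0.997), for STAR, a gene of steroid synthesis (0.923), for CSTA (0.831), for LOC101751314 (0.992) and for the oviduct gland markers OVALY (0.938) and SPINK7 (0.8999), both under 3 CPM. For OVALX and LOC121107016 the ratio was 1 because normal 4 alone had counts, 1 for OVALX and 74 for LOC121107016.

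Normal 3 stood apart for LOC101751168 (0.943) and LOC121107687 (0.905). Early 21 was the highest early library for DBH (0.998), CYB561 (0.857) and CD3E, a T cell gene (0.897). Early 9 was the highest for PNMT (0.884), TCF24 (0.8975) and the oxidative phosphorylation score (0.874). Early 11 was the highest for LOC107054136 (0.8925) and LOC101751314 (0.998), and early 12 for LOC121107016 (1) and TNNC2 (0.917). TNNC2 had 5 counts in early 12 and 2 in each other early library.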

How the results depend on the processing

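No paired analysis was possible because the early and normal samples share no number. Normal 3 and normal 7 do share their numbers with late 3 and late 7, which entered the same unpaired fit. No source used here says whether these come from the same birds. edgeR called 0 genes under every alternative run, among them the fit with the fibroblast score as a covariate, and voom and both limma fits on TPM also called 0, while DESeq2 called 8. The count with an unadjusted p under 0.05 (813) was 1602 by voom and 1355 with the covariate, where 806.5 would be counted if no gene differed. It ran from 459 to 1879 when 1 library was left out, the lowest without normal 3 (without normal 4 it was 469) and the highest without normal 7. The count of genes without overlap (381) ran from 522 to 2030 with 1 library left out, the highest without normal 7. Each of these compares 3 with 4 values, where more genes are expected without overlap if none differs. DESeq2's count of 8 ran from 6 to 172 with 1 library left out, the highest without normal 7 (78 higher and 94 lower in early tumour), and was 20 on the 8 libraries alone. With 1 library left out, the number of genes with the larger SD in early tumour (9009) ran from 7328 without early 11 to 10549 without normal 7. The former was 44.8% of the genes tested there. Each sets an SD of 3 values against an SD of 4, and an SD of fewer values tends to be lower. The log2 fold change of LOC101751314 (1.85) ran from -5.05 without early 11 to 7.57 without normal 4, and was -2.78 with the covariate. Of the 62 genes whose fold change was followed through these settings, no other turned its direction. These genes were chosen by p or fold change in the same libraries, which made a turn unlikely. Leaving a library out also changed the sign of several list medians, among them nerve (0.13 without normal 4) and endothelium (-0.08 without early 21). The cause was not tested. The covariate fit and the repeats of DESeq2 were chosen after seeing the data. With 4 libraries a group, a difference under 2-fold was measurable for part of the genes alone.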

Other observations

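The fit with the fibroblast and matrix score of each library as a covariate, chosen after seeing the data, called 0 genes by edgeR, with a smallest adjusted p of 0.113. The smallest p was that of LOC121107543 (log2 fold change 1.15, edgeR adjusted p = 0.113). Of the other genes with small p-values, CSTA, KRT7, ANXA1, FABP5 and GLRX are described here. LOC121107543, ANXA1, FABP5 and GLRX were chosen after their values were seen. Others with small p-values, such as MST1, SERPINF2, VNN2 and SOD3, are not described, so these genes do not stand for the whole set. The median of the epithelial adhesion and keratins list stayed between 0.09 and 0.24 in every alternative. CSTA, the protease inhibitor, had a log2 fold change of 2.08 (edgeR adjusted p = 0.113). KRT7, the keratin of simple epithelia, had 1.05 (edgeR adjusted p = 0.227), against 0.65 ± 0.73 SE without the covariate. ANXA1, a lipid-binding protein of epithelia and phagocytes, had 0.98, FABP5, a fatty acid carrier of epidermis, 0.98, and GLRX, a glutaredoxin, 1.35, each with an edgeR adjusted p of 0.227.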
